A study of Mus musculus with 6 samples.

Results

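The subunits of oxidative phosphorylation encoded in the nucleus were followed in visceral white adipose tissue (viWAT) material from mice bred to delete heme oxygenase-1 (HO-1, encoded by Hmox1), which degrades heme, in cells that have expressed Pdgfra. Members were defined by gene symbol, with earlier results of these data known. They were the Nduf subunits of complex I, Sdha to Sdhd of complex II, the Uqcr genes of complex III, the Cox4 to Cox8 genes of complex IV with a letter a to c, and the Atp5 genes of complex V, with assembly factors left out. This gave 79 of the 19938 genes with a named probeset, 35 in complex I, 4 in complex II, 8 in complex III, 15 in complex IV and 17 in complex V. Of these, 77 passed the filter on dim probesets (log2 intensity above 7 in at least 3 arrays) and were tested among 11024 genes. The 2 that did not pass were Cox6b2 and Cox7b2. Ndufa4 is counted with complex I by its symbol, although its product is now placed in complex IV.

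The animals were Hmox1f/f PdgfraCre mice, which carry loxP sites around exon 2 of Hmox1 and Cre under the Pdgfra promoter, and control Hmox1f/f mice with the same floxed allele and no Cre. No control carried Cre, so an effect of Cre itself and one of Hmox1 deletion cannot be told apart. All animals were on the C57BL/6J background and were fed a high-fat diet (HFD) for 8 weeks from 6 weeks of age. Each genotype had 3 arrays, numbered 1 to 3 for Hmox1f/f PdgfraCre and 4 to 6 for Hmox1f/f, and each array held RNA pooled from 2 mice. The labels describe the material both as adipose precursors (APs) purified on magnetic beads and as viWAT.

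Oxidative phosphorylation is the chain of protein complexes in the inner mitochondrial membrane that makes most ATP in resting cells. Complex I (NADH dehydrogenase) and complex II (succinate dehydrogenase) feed electrons to ubiquinone, complex III passes them to cytochrome c, complex IV (cytochrome c oxidase) passes them to oxygen, and complex V (ATP synthase) uses the proton gradient to make ATP. Most subunits are nuclear genes and a small set is encoded in mitochondrial DNA, so the complexes depend on both genomes, and complexes I and III are known sources of reactive oxygen species. In adipose tissue, respiratory capacity is built up as precursors become adipocytes. The study was concerned with mitochondrial activity and reactive oxygen species in APs without HO-1, and the comparison here asks whether the transcripts of the respiratory chain differed between the genotypes.

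Hmox1 itself read 11.25, 11.36 and 10.74 in Hmox1f/f PdgfraCre arrays, against 11.90, 11.63 and 12.32 in Hmox1f/f arrays, a log2 difference (Hmox1f/f PdgfraCre minus Hmox1f/f) of -0.83 ± 0.23 (SE) with an adjusted p of 0.266 in limma. The genotypes did not overlap, and whether the probeset lies in the deleted exon was not tested. No gene reached an adjusted p under 0.05, the smallest being 0.266. At an unadjusted p under 0.05 there were 1740 genes, 1406 lower and 334 higher in Hmox1f/f PdgfraCre, and after a further quantile normalization 930 of 1598 were lower. The arrays were not of one cell type. The adipocyte gene Adipoq lay between 12.74 and 13.10 and the macrophage gene Adgre1 between 11.08 and 11.92, while the precursor gene Pdgfra lay between 10.05 and 10.36 and Ucp1, which defines brown fat, did not pass the filter. Markers of the epididymis, which adjoins this fat pad, averaged 7.84, 5.54 and 5.97 on the Hmox1f/f PdgfraCre arrays, against 5.53, 5.96 and 7.57 in Hmox1f/f. The main counts and medians are therefore also given without Hmox1f/f PdgfraCre 1 and Hmox1f/f 6. In bulk RNA, fewer cells of a type and less RNA per cell cannot be told apart.

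Subunit transcripts lay slightly lower in Hmox1f/f PdgfraCre in all 5 complexes, by amounts that were small and did not pass the test gene by gene. Of the 77 tested members 64 had a difference below 0 (83.1%), against 57.4% of all genes tested, with a median log2 difference of -0.08 for the members and -0.03 for all genes. At an unadjusted p under 0.05 in limma 7 members were lower (9.09%), against a background of 12.8% of all genes, and 0 were higher, against 3.03%. After a further quantile normalization the median of the members was -0.032 with 53 of 77 below 0, against 0.0014 and 49.8% for all genes. With no filter, 66 of all 79 members were below 0, against 49.4% of all genes. That share of all genes rose with the filter, to 53.0% at log2 6 and 57.4% at log2 7. The members were brighter (array means 9.91 to 10.09) than all genes tested (8.84 to 8.92), and a comparison with genes of like intensity was not made. After Benjamini-Hochberg adjustment 0 members passed, against 0% of all genes. The arrays of the genotypes did not overlap for 16 members that were lower (20.8%), against 21.2% of all genes, and for 0 that were higher, against 5.82%. The members therefore showed a share of negative differences above that of all genes, while their shares past the unadjusted threshold and without overlap were at or under the background.

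**Figure D1:**
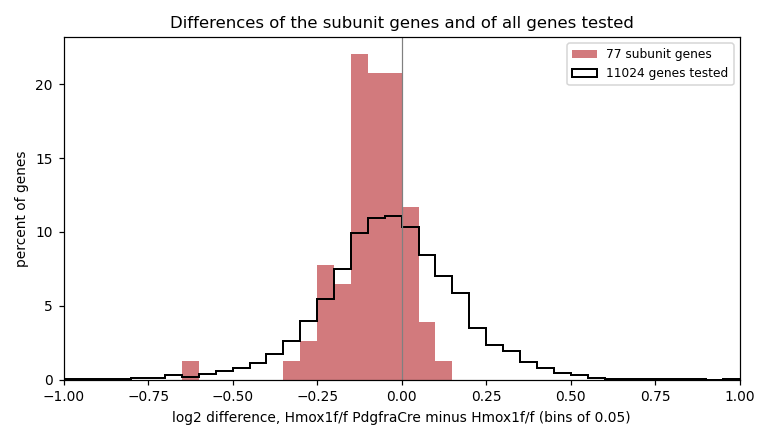
Distribution of the log2 difference, Hmox1f/f PdgfraCre minus Hmox1f/f, for the 77 tested subunit genes (filled) and all 11024 genes tested (line), in percent of genes per bin of 0.05. The subunit genes form a narrow peak just below 0, with a median of -0.08 against -0.03 for all genes, and 36 of all genes lie outside the plotted range.

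The spread of the members was narrow. Differences ran from -0.60 for Cox8c to 0.11 for Ndufs1, and the median SE was 0.09, about as large as the median difference. By complex, 28 of 35 members of complex I had a difference below 0 (median -0.05), 3 of 4 of complex II (median -0.14), 7 of 8 of complex III (median -0.06), 11 of 13 of complex IV (median -0.10) and 15 of 17 of complex V (median -0.09). Members with an unadjusted p under 0.05, all lower, numbered 3 in complex I (8.57%), 1 in complex II (25%) and 1 in complex III (12.5%). There were 2 in complex IV (15.4%) and 0 in complex V, against 12.8% of all genes. Whether complexes differed from each other was not tested.

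**Figure D2:**
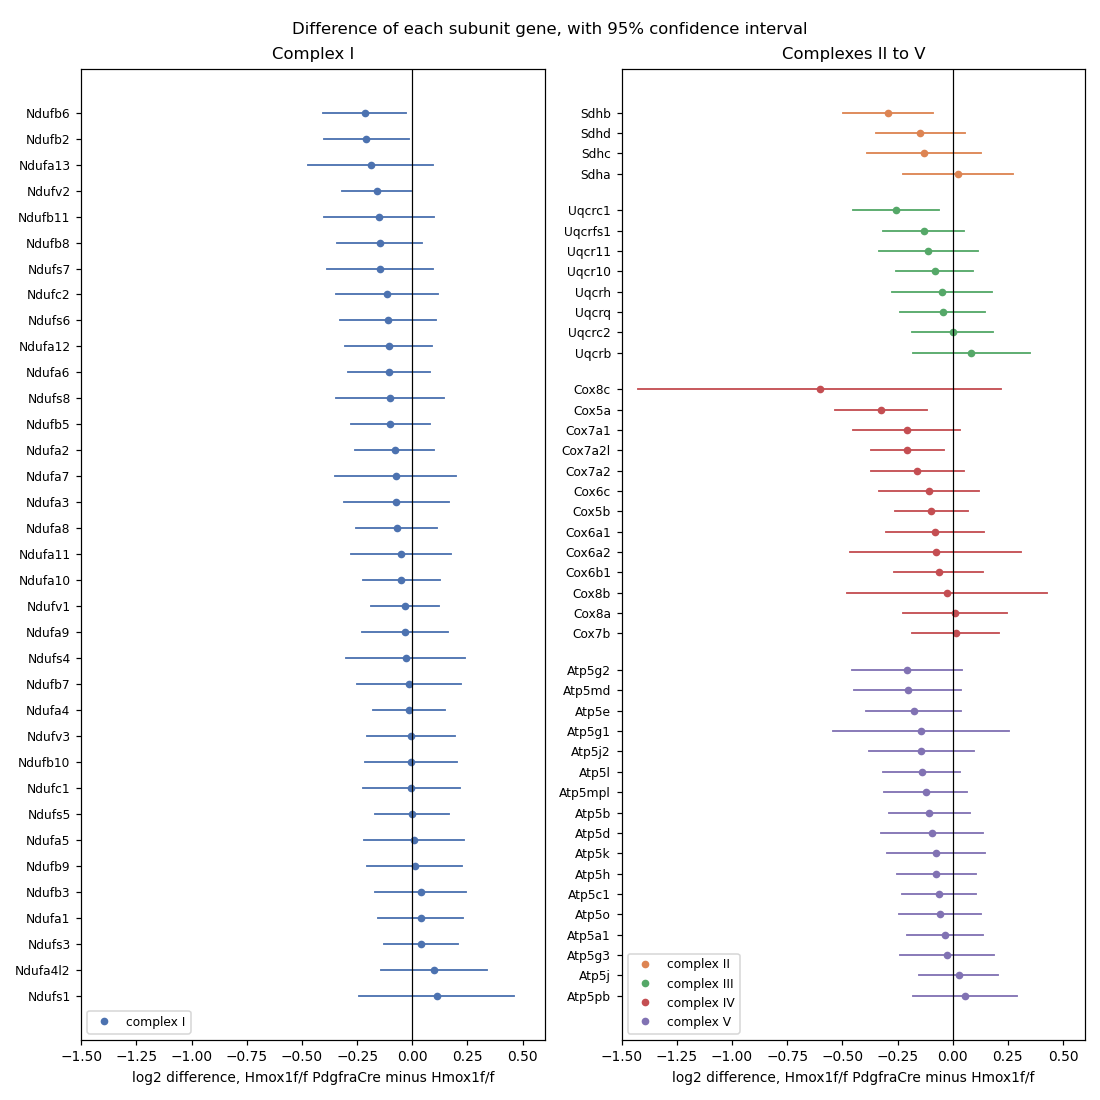
Log2 difference, Hmox1f/f PdgfraCre minus Hmox1f/f, of each tested subunit gene (point) with its 95% confidence interval from limma (line), sorted within complex I on the left and complexes II to V on the right. Most points lie left of 0, and the intervals of 7 genes, Ndufb6, Ndufb2 and Ndufv2 of complex I, Sdhb, Uqcrc1, Cox5a and Cox7a2l, exclude 0 before adjustment.

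Much of this pattern rested on 1 array. Averaged over the 77 members, the log2 intensity was 10.01, 10.03 and 9.91 in Hmox1f/f PdgfraCre 1, 2 and 3, against 10.07, 10.09 and 10.06 in Hmox1f/f 4, 5 and 6. The genotypes did not overlap, but array 3 lay well under the other 5. It held the lowest value of the 6 arrays for 44 of the 77 members (57.1%), against 25.9% of all genes tested, and the highest value for 7 members (9.09%), against 31.3% of all genes. Without this array the median of the members was -0.036 and that of all genes -0.052, and 59 of 77 members had a difference below 0, against 63.1% of all genes. The median of the members was thus below that of all genes with array 3 and not without it, while the share below 0 was above that of all genes either way. The same array was the lowest of the 6 for macrophage markers and the highest for adipocyte markers, whose values follow with the other marker lists. With Hmox1f/f PdgfraCre 1 and Hmox1f/f 6 both left out the medians were -0.10 for the members and -0.03 for all genes. Of the 77 members 66 were then below 0, against 59.1% of all genes. That comparison, Hmox1f/f PdgfraCre 2 and 3 against Hmox1f/f 4 and 5, still held array 3. There 1 member (Cox5a) kept an unadjusted p under 0.05, with 448 of all genes, and 3.25% of all genes were lower at that threshold.

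Array means by complex gave the same picture. They were 9.60 to 9.68 in Hmox1f/f PdgfraCre and 9.70 to 9.72 in Hmox1f/f for complex I, and 10.44 to 10.58 against 10.63 to 10.68 for complex II. Complex III ran between 9.87 and 9.94 in Hmox1f/f PdgfraCre and between 9.95 and 10.04 in Hmox1f/f, complex IV between 9.50 and 9.71 against 9.76 and 9.78, and complex V between 10.75 and 10.92 against 10.92 and 10.96. In none of the 5 did the genotypes overlap, though for complex V they met at 10.92 and for complex III they were 0.01 apart, while the means over all genes tested did overlap (8.84 to 8.90 against 8.88 to 8.92). Array 3 was the lowest in each complex. The 7 members for which it was the highest array were Ndufa5, Ndufs1 and Ndufs3 of complex I, Sdha, Uqcrb, Uqcrc2 and the stalk subunit gene Atp5pb, with differences between -0.00 and 0.11.

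**Figure D3:**
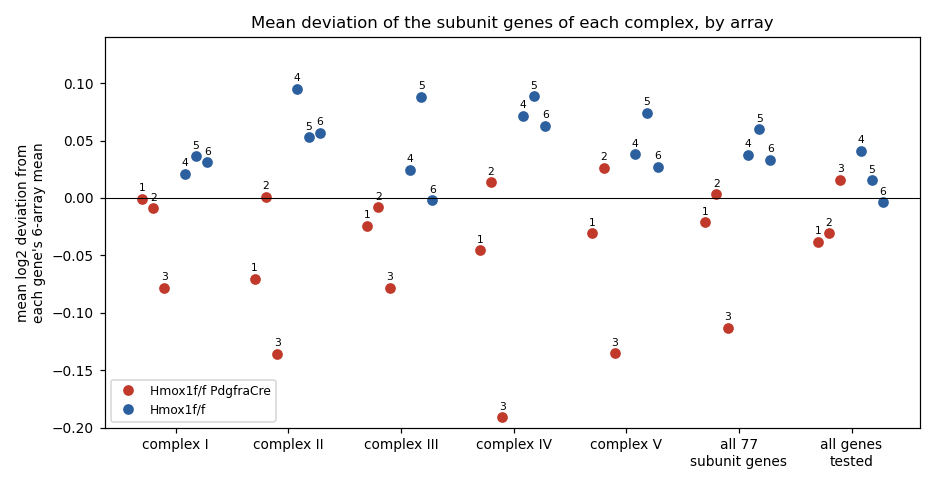
Mean log2 deviation of the tested subunit genes of each complex from each gene's mean over the 6 arrays, by array (number beside each point), for Hmox1f/f PdgfraCre (left in each column) and Hmox1f/f. Array 3 is the lowest in each complex, at -0.11 over the 77 subunit genes, but lies at 0.02 over all genes tested.

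The member with the smallest p was Cox5a, a nuclear subunit of cytochrome c oxidase on the matrix side. It read 9.47, 9.69 and 9.55 in Hmox1f/f PdgfraCre, against 9.84, 9.98 and 9.87 in Hmox1f/f. All 3 Hmox1f/f PdgfraCre arrays lay below all 3 Hmox1f/f arrays, with a log2 difference of -0.33 ± 0.09 (SE; 95% interval -0.54 to -0.12), or 1.25-fold lower, an unadjusted p of 0.0082 and an adjusted p of 0.266 in limma. Cox5a kept an unadjusted p under 0.05 under each of the 15 other settings tried, Sdhb under 14 of 15 and Uqcrc1 under 13 of 14, whereas the other 4 of the 7 did so under 5 to 9 of 14. The promoters of these first 3 genes are shown because their values held best, and because the factors NRF1, GABPA (an ETS protein), ERRA and YY1 are textbook regulators of respiratory chain genes. The windows are 250 bases before to 50 bases after the transcription start in RefSeq (GRCm38.p6, plus strand), with motif matches in capitals.
Cox5a promoter, chr9:57520982-57521281: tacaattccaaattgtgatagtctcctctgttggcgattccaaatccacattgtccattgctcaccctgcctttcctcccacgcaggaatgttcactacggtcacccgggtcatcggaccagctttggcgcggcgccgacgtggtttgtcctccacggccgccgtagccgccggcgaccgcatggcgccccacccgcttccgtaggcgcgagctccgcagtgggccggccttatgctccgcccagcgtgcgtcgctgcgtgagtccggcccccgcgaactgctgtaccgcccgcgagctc
Sdhb promoter, chr4:140961021-140961320: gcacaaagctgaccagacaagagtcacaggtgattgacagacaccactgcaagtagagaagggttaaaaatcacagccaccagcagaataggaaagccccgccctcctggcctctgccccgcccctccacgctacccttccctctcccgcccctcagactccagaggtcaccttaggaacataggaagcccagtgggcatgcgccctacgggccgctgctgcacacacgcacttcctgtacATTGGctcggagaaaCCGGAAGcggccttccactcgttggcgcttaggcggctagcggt
Uqcrc1 promoter, chr9:108936398-108936697: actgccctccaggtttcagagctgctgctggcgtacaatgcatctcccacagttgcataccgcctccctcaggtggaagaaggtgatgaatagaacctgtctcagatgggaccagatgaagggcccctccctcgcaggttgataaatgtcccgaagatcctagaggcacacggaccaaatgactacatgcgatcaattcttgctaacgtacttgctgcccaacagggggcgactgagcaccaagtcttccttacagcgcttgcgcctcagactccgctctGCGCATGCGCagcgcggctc

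Exact matches were sought on both strands for the NRF1 motif GCGCATGCG, the ETS motif CCGGAAG, the ERRA motif TCAAGGTCA, the YY1 motif AAGATGGCG and the CCAAT box. The Cox5a window held none of them. In Sdhb an ETS match began 7 bases after the start and a reversed CCAAT box lay at -9. In Uqcrc1 the capitals are the NRF1 motif from 31 bases after the start, overlapping its own reverse complement by all but the outer bases. Of the 79 members 66 were in the promoter table. The NRF1 motif was in 8 of them (12.1%), against 1.95% of all 27025 genes in the table and 4.17% of the tested genes. ETS matches were in 17 (25.8%, against 9.93% of all and 19.8% of tested genes) and YY1 matches in 7 (10.6%, against 1.64% and 3.59%). The ERRA motif was in 2 (3.03%, against 0.466% and 0.34%) and the CCAAT box in 29 (43.9%, against 41.1% and 42%). The median difference of members with and without a match was -0.10 and -0.08 for NRF1, -0.08 and -0.08 for ETS and -0.03 and -0.08 for YY1. These counts describe letters in the windows and not binding.

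In complex I, the entry point for electrons from NADH, 3 members had an unadjusted p under 0.05. Ndufb6, an accessory subunit of the membrane arm, read 10.01, 10.06 and 9.94 in Hmox1f/f PdgfraCre, against 10.17, 10.31 and 10.17 in Hmox1f/f. Ndufb2, another accessory subunit of that arm, read 7.87, 7.92 and 7.80, against 7.99, 8.17 and 8.04 in Hmox1f/f. Neither gene overlapped between the genotypes, and their differences were -0.22 ± 0.08 (SE, adjusted p = 0.284 in limma) and -0.21 ± 0.08 (adjusted p = 0.295). Ndufv2, a core iron-sulfur subunit of the NADH-oxidising module, read 10.27, 10.26 and 10.28, against 10.39, 10.43 and 10.47 in Hmox1f/f. The 3 Hmox1f/f PdgfraCre arrays agreed closely here, array 3 included, and the difference was -0.16 ± 0.06 (adjusted p = 0.310 in limma). Next by p stood Ndufb8 (-0.15 ± 0.08), Ndufa13 (-0.19 ± 0.12) and Ndufb11 (-0.15 ± 0.10), whose intervals included 0. Of these only Ndufb8 did not overlap, and Ndufa13 stood at -0.092 without Hmox1f/f 6.

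The nuclear core subunits, which among them hold the flavin and the iron-sulfur clusters, were a subgroup chosen after the values were seen. They were divided, with 4 of 6 below 0 and a median of -0.07. Beside Ndufv2 they were Ndufs7 (-0.15 ± 0.10), Ndufs8 (-0.10 ± 0.10), the flavin subunit Ndufv1 (-0.03 ± 0.06), Ndufs3 (0.04 ± 0.07) and Ndufs1 (0.11 ± 0.15). Ndufs1 read 9.42, 9.54 and 9.91 in Hmox1f/f PdgfraCre, against 9.56, 9.61 and 9.36 in Hmox1f/f, with array 3 the highest of the 6 and Hmox1f/f 6 the lowest. Among the 29 other members 24 were below 0, with a median of -0.05. Ndufa4 read 11.40 ± 0.02 in Hmox1f/f PdgfraCre and 11.41 ± 0.06 in Hmox1f/f (SD, n = 3 each), a difference of -0.01 ± 0.07 (SE) that turned to 0.02 after a further quantile normalization and to 0.00 with median centring. Its paralog Ndufa4l2, known as a hypoxia-induced gene, differed by 0.10 ± 0.10. The intervals of both ran on either side of 0.

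**Figure D4:**
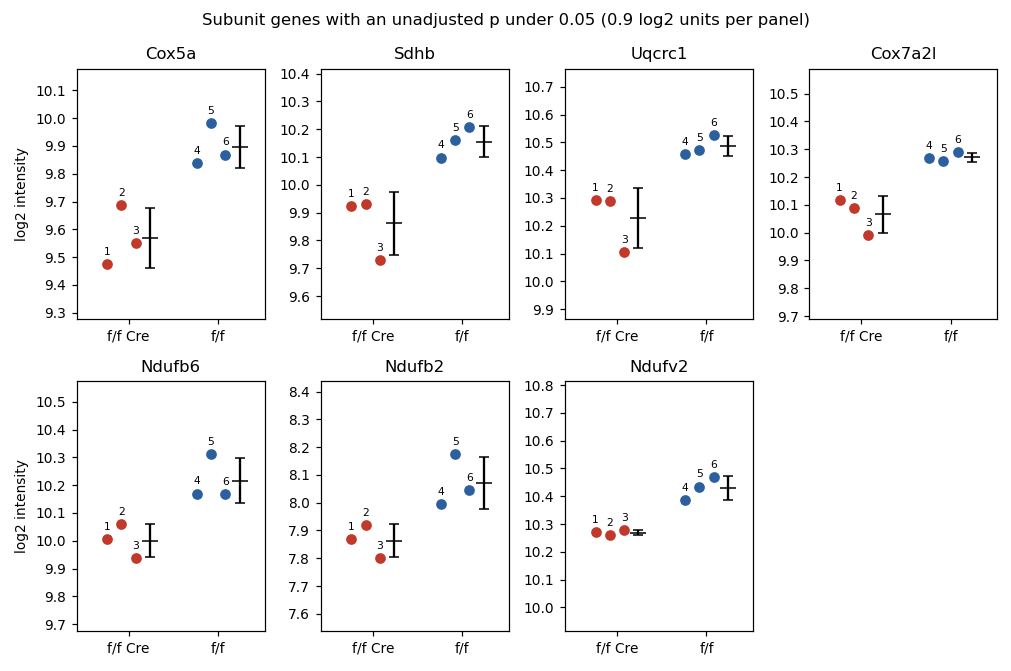
Log2 intensity by array (number above each point) of the 7 subunit genes with an unadjusted p under 0.05, in order of p, for Hmox1f/f PdgfraCre (f/f Cre, left in each panel) and Hmox1f/f (f/f), with the mean and SD of the 3 arrays beside the points. Axes span 0.9 log2 units and do not start at 0. No panel shows an overlap between the genotypes, and adjusted p-values lie between 0.266 and 0.310.

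Complex II is both a respiratory enzyme and an enzyme of the tricarboxylic acid (TCA) cycle, and it has no subunit encoded in mitochondria. Its iron-sulfur subunit gene Sdhb read 9.92, 9.93 and 9.73 in Hmox1f/f PdgfraCre, against 10.10, 10.16 and 10.21 in Hmox1f/f. The genotypes did not overlap, and the difference was -0.29 ± 0.08 (SE; adjusted p = 0.266 in limma). The membrane anchors gave 10.19, 10.31 and 10.11, against 10.41, 10.27 and 10.38 in Hmox1f/f, for Sdhd (-0.15 ± 0.08), and 10.50, 10.63 and 10.27, against 10.65, 10.53 and 10.62, for Sdhc (-0.13 ± 0.11). Both overlapped. The flavoprotein gene Sdha, which holds the catalytic site, read 11.42, 11.45 and 11.66 in Hmox1f/f PdgfraCre, against 11.55, 11.57 and 11.35 in Hmox1f/f (0.02 ± 0.10). Array 3 was thus the lowest for Sdhb, Sdhc and Sdhd and the highest for Sdha. Without it Sdha stood at -0.05 and the median of the complex at -0.08, and without Hmox1f/f 6, the lowest array for Sdha, that gene stood at -0.046.

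Complex III passes electrons from ubiquinol to cytochrome c. The core protein gene Uqcrc1 read 10.29, 10.29 and 10.10 in Hmox1f/f PdgfraCre, against 10.46, 10.47 and 10.53 in Hmox1f/f, with no overlap and a difference of -0.26 ± 0.08 (SE; adjusted p = 0.266 in limma). Its partner in the core, Uqcrc2, averaged 10.85 ± 0.07 in Hmox1f/f PdgfraCre and 10.86 ± 0.07 in Hmox1f/f (SD, n = 3 each), a difference of -0.00 ± 0.08. A test of the difference between these partners was not made. The Rieske iron-sulfur protein gene Uqcrfs1 differed by -0.13 ± 0.08 without overlap (8.81, 8.87 and 8.84, against 8.92, 9.08 and 8.92 in Hmox1f/f). The small subunit genes were Uqcr11 (-0.11 ± 0.09), Uqcr10 (-0.08 ± 0.07), Uqcrh (-0.05 ± 0.09), Uqcrq (-0.05 ± 0.08) and Uqcrb (0.08 ± 0.11), and all 5 overlapped. Uqcrb was the only member of the complex with a difference above 0 and was at -0.06 with arrayWeights.

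Complex IV reduces oxygen, and several of its nuclear subunits exist as paralogs made in different tissues. Beside Cox5a, the gene Cox7a2l read 10.12, 10.09 and 9.99 in Hmox1f/f PdgfraCre, against 10.27, 10.26 and 10.29 in Hmox1f/f. That was a difference of -0.21 ± 0.07 (SE; adjusted p = 0.271 in limma) without overlap. Its relatives pointed the same way, with -0.16 ± 0.09 for Cox7a2, the widely expressed form, and -0.21 ± 0.10 for Cox7a1, the form of heart, muscle and brown fat. Cox7a1 read 7.52, 7.66 and 7.34, against 7.69, 7.79 and 7.67 in Hmox1f/f, close to the filter of 7. The zinc-binding subunit gene Cox5b was also without overlap, at -0.10 ± 0.07. Cox6c (-0.11 ± 0.09), Cox6a1 (-0.08 ± 0.09) and Cox6b1 (-0.06 ± 0.08), all widely expressed, overlapped, and without array 3 Cox6a1 stood at -0.0015 and Cox6b1 at -0.0001. Cox7b (0.01 ± 0.08) and Cox8a (0.01 ± 0.10) were near 0. The muscle forms Cox6a2 (-0.08 ± 0.16) and Cox8b (-0.03 ± 0.19) had wider errors.

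The largest difference of any member belonged to a testis isoform and rested on 1 control array. Cox8c, the testis form of Cox8, read 6.79, 7.06 and 6.75 in Hmox1f/f PdgfraCre, against 7.03, 7.09 and 8.29 in Hmox1f/f (-0.60 ± 0.34, SE; adjusted p = 0.413 in limma). Without Hmox1f/f 6 it was at -0.19. The testis forms Cox6b2 and Cox7b2, which were not tested, had the same profile. Cox6b2 read 6.46, 6.60 and 6.27, against 6.67, 6.52 and 7.86 in Hmox1f/f, and Cox7b2 read 4.52, 4.58 and 4.39, against 4.46, 4.52 and 5.88. Array 6 alone stood out for the 3 testis isoforms, whereas for their widely used paralogs Cox6b1, Cox7b and Cox8a it was not high, at 11.68, 10.22 and 11.14. The same array was the highest in a list of 9 spermatid genes, chosen after their values were seen. The protamine gene Prm1, which packs sperm DNA, read 7.71, 7.31 and 8.85, against 8.28, 9.26 and 11.30 in Hmox1f/f. Averaged over the 9 genes the arrays stood at 7.41, 6.40 and 7.93, against 6.93, 8.19 and 10.45 in Hmox1f/f. The part of germ cell RNA in the testis isoforms was not tested.

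**Figure D5:**
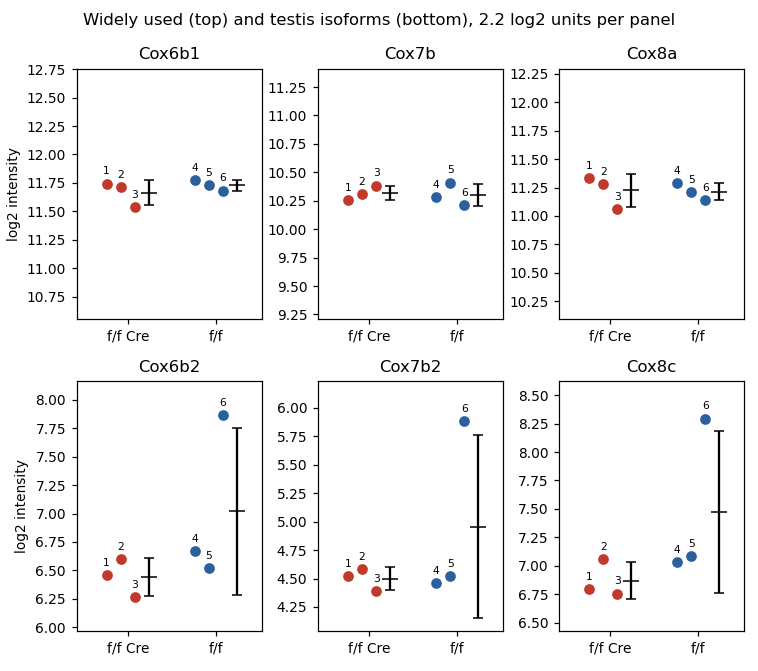
Log2 intensity by array (number above each point) of 3 widely used complex IV subunit genes (top) and their testis paralogs (bottom), for Hmox1f/f PdgfraCre (f/f Cre, left in each panel) and Hmox1f/f (f/f), with the mean and SD of the 3 arrays beside the points. Each axis spans 2.2 log2 units and does not start at 0. Array 6 is high for Cox6b2, Cox7b2 and Cox8c, at 7.86, 5.88 and 8.29, and is not high for Cox6b1, Cox7b and Cox8a.

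Complex V, which makes ATP, had 15 of 17 members below 0 and none with an unadjusted p under 0.05. Its subgroups were chosen after their values were seen. In the catalytic F1 head all 5 members were below 0, from -0.04 ± 0.07 for the alpha subunit gene Atp5a1 and -0.11 ± 0.08 for the beta subunit gene Atp5b to -0.18 ± 0.09 for the epsilon subunit gene Atp5e. Of the small membrane subunits all 5 were below 0, with a median of -0.14. Atp5md read 10.95, 11.00 and 10.84 in Hmox1f/f PdgfraCre, against 11.07, 11.31 and 11.02 in Hmox1f/f (-0.20 ± 0.10, SE; adjusted p = 0.361 in limma). Atp5l, the gene of subunit g, read 10.94, 10.95 and 10.95, against 11.00, 11.16 and 11.10 in Hmox1f/f (-0.14 ± 0.07; adjusted p = 0.373). Neither overlapped, nor did Atp5mpl (-0.12 ± 0.08), and in Atp5l the 3 Hmox1f/f PdgfraCre arrays were nearly equal. The peripheral stalk, which holds the head still, was divided, with Atp5h (-0.07 ± 0.07) and Atp5o (-0.06 ± 0.08) below 0 and Atp5j (0.03 ± 0.07) and Atp5pb (0.05 ± 0.10) above it.

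The 3 genes of the c ring, Atp5g1, Atp5g2 and Atp5g3, encode the same mature protein and differ in the targeting peptide. Atp5g2 read 11.94, 11.98 and 11.65 in Hmox1f/f PdgfraCre, against 12.04, 12.04 and 12.10 in Hmox1f/f, without overlap (-0.21 ± 0.10, SE; adjusted p = 0.369 in limma). Atp5g1 read 11.45, 11.27 and 10.82, against 11.30, 11.26 and 11.42 in Hmox1f/f (-0.14 ± 0.16), and Atp5g3 averaged 11.03 ± 0.09 in Hmox1f/f PdgfraCre and 11.05 ± 0.10 in Hmox1f/f (SD, n = 3 each). For Atp5g1 the whole difference lay in array 3, and without it the value was 0.04. Atp5g3 turned to 0.02 without that array and to 0.03 after a further quantile normalization.

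More than 1 probeset was present for 16 members. For 15 of these all probesets had the same sign, and for Cox7b they ran from -0.03 to 0.01. Another 6 probesets, annotated to Cox7c, Ndufb4 or Ndufs5 together with a pseudogene or copy and so not assigned to any member, were all lower, by -0.13 to -0.07. Cox7c and Ndufb4 are not among the members for this reason.

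Genes that work with the chain were compared in the same fit. Of 8 subunit or partner genes whose symbols fell outside the rule 4 were below 0 (median -0.02). At an unadjusted p under 0.05 1 was lower (12.5%, against 12.8% of all genes). That gene was Atpif1, which encodes the inhibitor of ATP hydrolysis by complex V. It read 11.91, 11.90 and 11.59 in Hmox1f/f PdgfraCre, against 12.06, 12.01 and 12.23 in Hmox1f/f (-0.30 ± 0.12, SE; adjusted p = 0.299 in limma). Cyc1, cytochrome c1 of complex III, read 9.18, 9.30 and 9.16, against 9.35, 9.40 and 9.37 in Hmox1f/f (-0.16 ± 0.07), and neither gene overlapped. ND3, a complex I subunit encoded in mitochondrial DNA, stood at 12.87, 12.75 and 12.73, against 12.72, 12.71 and 12.50 in Hmox1f/f (0.14 ± 0.09; adjusted p = 0.460 in limma). It was higher in each Hmox1f/f PdgfraCre array than in any Hmox1f/f array, by little for arrays 2 and 3. The value rested on Hmox1f/f 6, being 0.069 without that array and 0.026 without Hmox1f/f PdgfraCre 1 as well, and the mean of its probesets gave 0.073. The other mitochondrial subunit named in the annotation, COX2, overlapped, at 13.35, 13.37 and 13.48, against 13.32, 13.52 and 13.48 in Hmox1f/f. Nuclear copies of mitochondrial DNA exist, and whether these probesets also read them was not tested.

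Of 36 tested assembly factors 27 were below 0 (75%, against 57.4% of all genes), with a median of -0.08. At an unadjusted p under 0.05 in limma 2 were lower (5.56%, against 12.8% of all genes) and 1 was higher (2.78%, against 3.03%), so neither share exceeded that of all genes. They were Taco1, which aids translation of mitochondrial Cox1 (-0.25 ± 0.08, SE; adjusted p = 0.271 in limma), Uqcc3, which assembles complex III (-0.18 ± 0.07; adjusted p = 0.305), and the complex I factor Ndufaf4 (0.26 ± 0.11; adjusted p = 0.311). The 16 genes of the TCA cycle and pyruvate dehydrogenase were balanced, with 9 below 0, a median of -0.01 and 0 past the unadjusted threshold. Carriers and channels of the mitochondrial membranes had the lowest median of these lists, -0.19. Of 13 tested 10 were below 0 (76.9%, against 57.4% of all genes). At an unadjusted p under 0.05 in limma 6 were lower (46.2%, against 12.8% of all genes). Slc25a13, the aspartate-glutamate carrier citrin, read 8.48, 8.46 and 8.33 in Hmox1f/f PdgfraCre, against 8.85, 8.71 and 9.04 in Hmox1f/f. Its difference was -0.44 ± 0.10 (SE; adjusted p = 0.266 in limma) without overlap. The oxoglutarate carrier gene Slc25a11 (-0.35 ± 0.09) and the outer membrane channel gene Vdac2 (-0.28 ± 0.09) also did not overlap.

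Of 14 tested regulators of mitochondrial biogenesis 8 were below 0 (median -0.00) and 1 was higher at an unadjusted p under 0.05 (7.14%, against 3.03% of all genes). This was Ppargc1a, the coactivator PGC-1alpha, which is known to raise respiratory chain genes. It read 7.61, 7.38 and 7.92 in Hmox1f/f PdgfraCre, against 7.32, 7.27 and 7.21 in Hmox1f/f (0.37 ± 0.14, SE; adjusted p = 0.295 in limma), without overlap and highest in array 3. These values lay close to the filter of 7, and the mean of its 2 probesets did not pass that filter. Tfb1m, which modifies mitochondrial ribosomal RNA, differed by -0.22 ± 0.12 (-0.13 without Hmox1f/f 6 and -0.048 without Hmox1f/f PdgfraCre 1 as well), and Ssbp1, which binds single-stranded mitochondrial DNA, by 0.16 ± 0.09. Of the 6 tested isoforms of limited tissue range 4 were below 0 (median -0.05). The lung form Cox4i2, outside the rule, stood at 0.16 ± 0.13.

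Markers of other cells also differed between the genotypes, none past the adjusted threshold. All 12 macrophage markers were below 0 (median -0.39), 7 at an unadjusted p under 0.05 (58.3%, against 12.8% of all genes lower). Their array means were 10.41, 10.62 and 10.30 in Hmox1f/f PdgfraCre, against 10.85, 10.79 and 10.81 in Hmox1f/f. Array 3 was the lowest of the 6 for these markers. Within Hmox1f/f, array 5 was the lowest for these markers and the highest for the subunits, by little in both. All 11 mature adipocyte markers were above 0 (median 0.13), 4 at an unadjusted p under 0.05 (36.4%, against 3.03% of all genes higher). Their array means were 12.42, 12.40 and 12.53, against 12.29, 12.34 and 12.16 in Hmox1f/f. All 8 endothelial markers were above 0 (median 0.37), at 9.82, 9.74 and 9.94, against 9.63, 9.52 and 9.25 in Hmox1f/f, and 6 of 8 mural markers were above 0 (median 0.23). The mural means were 9.35, 9.07 and 9.57, against 9.44, 9.23 and 8.70 in Hmox1f/f, so the genotypes overlapped and array 6 was the lowest. For both the adipocyte and the endothelial list array 3 was the highest. Of 9 tested precursor markers 4 were below 0 (median 0.03), 1 at an unadjusted p under 0.05 in limma (11.1%, against 12.8% of all genes lower). The genotypes did not overlap for 3 that were lower (33.3%, against 21.2% of all genes) and for 0 that were higher, against 5.82%. Pdgfra was among these 3, at -0.17 ± 0.08 (SE). The part of cell composition in the subunit values was not tested.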

How the data were processed

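Total RNA from 3 pools per genotype (200 ng each) was hybridised to Affymetrix mouse gene arrays. The values deposited by the authors are linear intensities per probeset, made by RMA (background correction, quantile normalization and summary over probes) in Affymetrix Expression Console 1.1 per the submitters' processing notes. RMA compresses dim probesets, and its quantile step hides any shift that most genes share. Log2 was taken here. Of 35556 probesets 21789 had 1 gene symbol in the platform annotation, 1621 had several and 12146 were unnamed here. For 999 genes with more than 1 probeset the one with the highest mean was used. The model (limma 3.58.1 in R 4.3.3, lmFit and eBayes, two-sided, genotype as the only term) was fitted on all 6 arrays and 19938 genes, with Benjamini-Hochberg adjustment over the 11024 of them whose log2 intensity exceeded 7 in 3 or more arrays. That filter follows the methods, which give it for another set of arrays and add a limit on the mean absolute deviation.

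Labels call each array a separate pool. No batch was given, and p-values measure the spread between pools, whose number limits the precision. The model was also run on simulated data. The simulated shifts were larger than the difference of any tested member except Cox8c, so that run does not cover effects of the members' size. Named genes were Hmox1, Pdgfra, up to 6 members per complex with the smallest p, all of complex II, paralog pairs, members failing the filter, up to 3 genes per other list and the defining markers. Other members, subgroups within a complex and the spermatid genes were chosen after their values were seen. The members and lists were chosen with earlier results of these data known. Of the subunits encoded in mitochondrial DNA ND3 and COX2 were analysed, and Ly6a, Cfd, Cox7c and Ndufb4 were not analysed here as single genes. Promoters were read from a RefSeq table (GRCm38.p6). Other settings tried were 3 filters, 2 normalizations, arrayWeights, a robust eBayes fit with a trend, probeset means, and leaving out arrays. Plots used matplotlib 3.10.9 (Python 3.11.15).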

Additional observations from a re-analysis of the deposited data

How the results depend on the processing

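No paired analysis was possible because the labels number the arrays 1 to 3 in Hmox1f/f PdgfraCre and 4 to 6 in Hmox1f/f, so the groups share no replicate number. Under each of the 15 alternatives the median of the members with a value (77, but 6 under the full filter, 78 with the filter at log2 6 and 79 with none) stayed below 0, 0 members passed an adjusted p of 0.05 and 0 were higher at an unadjusted p under 0.05. Of 841 values of 59 single genes, 28 turned direction, in 12 genes. The median SE of the members was 0.09, so single differences near the median of -0.08 lay within the error. The cause of each move was not tested.

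The number of members lower at an unadjusted p under 0.05 (7, against 12.8% of all genes) moved with the setting, as did the background. It was 14 with arrayWeights (17.2% of all genes lower), 3 after a further quantile normalization (8.43%) and 4 with median centring (10.4%). Under the full filter of the methods it was 2 of 6 (26.1%). It was 3 to 8 with 1 array left out and 1 without the array of each genotype highest in epididymal markers (3.25%). Leaving out 1 array gave 4 members without Hmox1f/f PdgfraCre 1 (7.28% of all genes lower) or 3 (10.9%). It gave 3 without Hmox1f/f 5 (9.62%) and 4 without Hmox1f/f 6 (7.4%). The full filter kept 6 members, all 6 below 0, with a median of -0.22, against 0.0085 for all genes. Several list medians under it rest on very few genes and do not describe the whole lists. The median was -0.29 for complex II, where only Sdhb was left, and -0.20 for complex IV. It was -0.40 for the carriers and channels, -0.070 for the subunits outside the rule and 0.11 for the assembly factors. For the biogenesis regulators it was 0.37, the value of Ppargc1a alone. For the TCA genes it was 0.24, midway between Dld and Sucla2. That filter keeps fewer genes by construction. After a further quantile normalization 53 of 77 members were below 0, and with median centring 57. Quantile normalization gave medians of -0.032 for the members, -0.018 for complex I, -0.14 for the carriers and channels and 0.0014 for all genes, with 930 genes lower, and with no filter that of all genes was 0.00. With arrayWeights it was -0.086 for complex II and -0.074 for the subunits outside the rule. Without the array of each genotype highest in epididymal markers it was -0.12 for complex III, -0.12 for the carriers and channels and -0.20 for the tissue-limited isoforms, with 448 genes at an unadjusted p under 0.05 and 358 lower. The full filter left 1117 such genes, 873 of them lower.

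With 1 array left out there were 961 to 2106 genes at an unadjusted p under 0.05 and 803 to 1490 lower. Medians ran from -0.10 to -0.036 for the members (-0.036 without Hmox1f/f PdgfraCre 3), -0.080 to -0.033 for complex I, -0.21 to -0.075 for complex II, -0.097 to -0.034 for complex III, -0.15 to -0.030 for complex IV, -0.14 to -0.043 for complex V and -0.17 to 0.082 for the tissue-limited isoforms, the last turned by leaving out Hmox1f/f PdgfraCre 3, which also gave the value nearest 0 for each complex. Medians near 0 turned too, from -0.051 to 0.012 for the subunits outside the rule (above 0 without Hmox1f/f PdgfraCre 1 or Hmox1f/f 5), -0.056 to 0.012 for the TCA genes (without Hmox1f/f PdgfraCre 1 or 2 or Hmox1f/f 5) and -0.035 to 0.033 for the biogenesis regulators (without Hmox1f/f PdgfraCre 1 or Hmox1f/f 4).

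Single genes that turned direction all lay near 0 or had wide errors. With arrayWeights Atp5g1 was at 0.033, Cox7b at -0.076, Dld at -0.0026, Sdha at -0.082, Sucla2 at -0.073 and Uqcrb at -0.064. A further quantile normalization gave 0.030 for Atp5g3 and 0.024 for Ndufa4, median centring 0.0033 for Ndufa4, and the mean of all probesets -0.0076 for Cox7b. Without the array of each genotype highest in epididymal markers Cox7b was at -0.0002 and Cox8a at -0.080. With 1 array left out, values ran from -0.28 to 0.036 for Atp5g1, -0.082 to 0.022 for Atp5g3, -0.17 to 0.093 for Cox6a2, -0.030 to 0.067 for Cox7b, -0.043 to 0.094 for Cox8a, -0.22 to 0.088 for Cox8b, -0.044 to 0.013 for Ndufa4 and -0.099 to 0.012 for Uqcrq. For Sdha they ran from -0.052 to 0.071.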
